A study of Mus musculus with 12 samples.

Results

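Insulin and the insulin-like growth factors (IGFs) signal through a small set of genes, and 10 of them were followed here in the retinal pigment epithelium (RPE) of the mouse. They are the ligands *Igf1* and *Igf2*, the receptors *Insr* and *Igf1r*, the adaptors *Irs1* and *Irs2*, and the secreted binding proteins *Igfbp2*, *Igfbp3*, *Igfbp5* and *Igfbp7*. These genes were chosen by name, with earlier results of these data known, as 10 of the 28591 genes in the deposited table. All 10 were among the 17768 genes with a mean normalized count of at least 10 that entered the test. Libraries were made from 6 WT (C57BL/6J) and 6 rd6 mice, all 1 mo of age, with the RPE of both eyes of a mouse combined. The rd6 mice are homozygous for the rd6 mutation of *Mfrp*, a membrane protein of the RPE, which removes part of the protein in frame. The mutation is in the germline and thus in every cell of the animal. The labels name no treatment. Whether WT and rd6 mice were littermates, and which libraries came from females or males, was not given in the sources used here, so litter or line cannot be told apart from genotype.

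Insulin and the IGFs bind receptor tyrosine kinases on the cell surface, and the activated receptors phosphorylate the insulin receptor substrates, adaptor proteins that recruit PI3-kinase and so switch on AKT and mTOR, while a parallel arm runs through RAS and the MAP kinases. AKT keeps FOXO transcription factors out of the nucleus, and *Irs2* is a textbook FOXO target that rises in fasting and falls after insulin. Binding proteins hold IGFs in the extracellular space and set how much ligand reaches the receptors, and in the outer eye this pathway is known for its part in photoreceptor survival, RPE metabolism and eye growth.

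The 12 libraries held between 28907262 and 33152725 reads on genes, and *Mfrp*, the mutated gene, was lower in every rd6 library (20442 to 29732 normalized counts) than in every WT library (30132 to 45442), a fall of 0.63 on the log2 scale (limma q = 0.00126). Its reads overlap those of a neighbouring gene and are therefore uncertain in their division. Of the markers that define the RPE, *Rpe65* had 74331 or more and *Rlbp1* 104460 or more normalized counts in every library, while *Best1*, another gene used to mark the RPE, was near the lower limit at 9.33 to 48.7. *Rpe65* and *Rlbp1* were nevertheless lower in rd6, with changes of -0.79 (q = 0.002) and -0.46 (q = 0.013) on the log2 scale. Of the 12 RPE markers 5 were lower and 7 did not pass, 3 of them with a positive change (*Best1* 0.57, *Pmel* 0.46 and *Ttr* 0.25, given after their values were seen), with a median change of -0.35, no marker at 0, and sums of 1557900 to 2340100 in WT and 1478800 to 1978500 in rd6. Markers of other cells were present too. Of 10 rod photoreceptor markers 4 were lower in rd6 and all 10 changes were negative (sums of 33366 to 72037 in WT and 17390 to 62317 in rd6), and of 5 melanocyte markers 3 were lower (10736 to 13160 and 9315 to 11101), with none of either list at 0. The summed level of the 11 microglia and macrophage markers other than *Csf1r* ran from 639 to 1384 in WT and from 3947 to 8456 in rd6. With *Csf1r*, which was left out of this sum after its values were seen, the sums were 14093 to 19668 in WT and 21483 to 29308 in rd6. Of the 12 markers in that list with *Csf1r*, 10 were higher in rd6, *Csf1r* itself made up 91.7% or more of the WT sum, and none was at 0 in any library. The 10 endothelial markers summed to 8366 to 15665 in WT and to 11971 to 29070 in rd6, with 7 of 10 higher and none at 0. Keratins of the ocular surface were high in WT 4, rd6 1 and rd6 5 (47145 to 167663, against 13294 or less in the other libraries). In bulk tissue such as this, fewer cells of a type and less RNA per cell cannot be told apart.

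Of the 10 genes, 3 were higher in rd6 (*Irs1*, *Igf1* and *Igfbp7*), 5 were lower (*Insr*, *Igf1r*, *Irs2*, *Igf2* and *Igfbp2*), and *Igfbp3* and *Igfbp5* did not pass the test (limma, Benjamini-Hochberg adjusted p-value, q, below 0.05). The share of 80% called stands beside 23.0% of all genes tested, which split into 11.4% higher and 11.6% lower. With a change of at least 0.81 on the log2 scale also required, the second rule used here, 4 of the 10 were called, *Irs1* and *Igf1* higher and *Irs2* and *Igf2* lower, beside 4.69% of all genes higher and 2.12% lower. In 8 of the 10 genes, the 8 that were called, the WT and rd6 libraries did not overlap at all (3 higher and 5 lower in rd6), as in 11.4% of all genes tested, 5.77% higher and 5.67% lower. The median size of the change was 0.70 on the log2 scale for the 10 genes and 0.19 for all genes tested, whereas the signed medians were -0.04 and 0.00. As the 10 were chosen with earlier results of these data known, these comparisons with all genes describe the 10 and are no test of them.

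**Figure D1:**
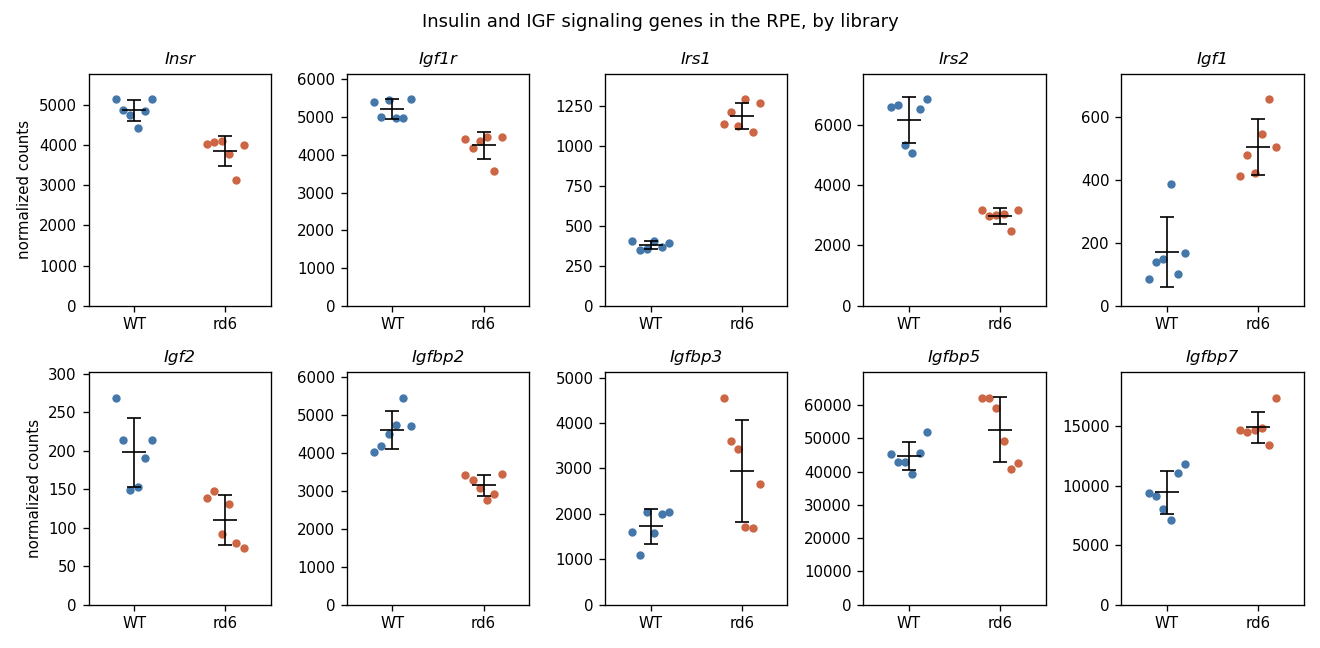
Normalized counts (y axis, linear and starting at 0) of the 10 insulin and IGF genes in the 6 WT and 6 rd6 libraries. Each point is 1 library and the bar and whiskers give the mean and SD of the genotype. The genotypes are separate for 8 genes and overlap for *Igfbp3* and *Igfbp5*, with *Irs1* moving from 352 to 407 up to 1087 to 1292.

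The adaptors moved in opposite directions. *Irs1* (ENSMUSG00000055980, chr1:82233101-82291416, minus strand, GRCm38), which couples the insulin and IGF1 receptors to PI3-kinase and carries much of the growth signal, had normalized counts of 403, 352, 354, 407, 370 and 393 in the WT libraries. In rd6 the *Irs1* counts were 1136, 1215, 1123, 1292, 1087 and 1266, so that the lowest rd6 library stood well above the highest WT library. *Irs1* rose by 1.64 on the log2 scale (SE 0.06), 3.12-fold, with q = 4.76e-09 by limma. Part of its exon bases is shared with an annotated gene on the opposite strand, and the reads were counted with default settings, which in the counter used do not separate the strands, so their division is uncertain. Of the microglia and macrophage markers 10 of 12, and of the endothelial markers 7 of 10, were higher in rd6. Their part in the rise of *Irs1* was not tested.

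*Irs2* (ENSMUSG00000038894, chr8:10984681-11008458, minus strand), the adaptor best known for insulin action in the liver and for survival of pancreatic beta cells and photoreceptors, was the more abundant of the pair in both genotypes. Its counts in WT were 6585, 6672, 5345, 5074, 6528 and 6849. In rd6 they were 3180, 2980, 2999, 3030, 2491 and 3187, all below the lowest WT library. *Irs2* fell by 1.05 on the log2 scale (SE 0.09), 2.07-fold, with q = 3.28e-06. An overlapping transcript on the opposite strand held at most 14.4 counts in any library. The 5 of 12 RPE markers that were lower in rd6 stand beside this fall, and their part in it was not tested.

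The ratio of *Irs1* to *Irs2* counts within a library is independent of how the libraries are scaled. It lay between 0.0529 and 0.0804 in WT and between 0.358 and 0.437 in rd6, and the mean difference of 2.69 on the log2 scale amounts to 6.44-fold. An exact permutation test over all 924 assignments of the libraries to the genotypes gave p = 0.00216, the smallest that this design allows, and 0.00325 after adjustment over the 3 ratios tested. Every rd6 library was above every WT library for *Irs1* and below for *Irs2*, so the ratio had to separate. This p thus followed from the single genes and is no further support. Per kilobase of exon, *Irs1* made up 4.13% ± 0.621 (SD, n = 6) of the reads on both adaptors in WT and 21.7% ± 1.28 in rd6. The sum of both adaptors went from 1018 ± 120 normalized counts per kilobase in WT to 601 ± 46.0 in rd6, with no overlap (847 to 1126 against 513 to 643). This share and this sum are over all cells of the tissue, and the part of each cell type in them was not tested.

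**Figure D2:**
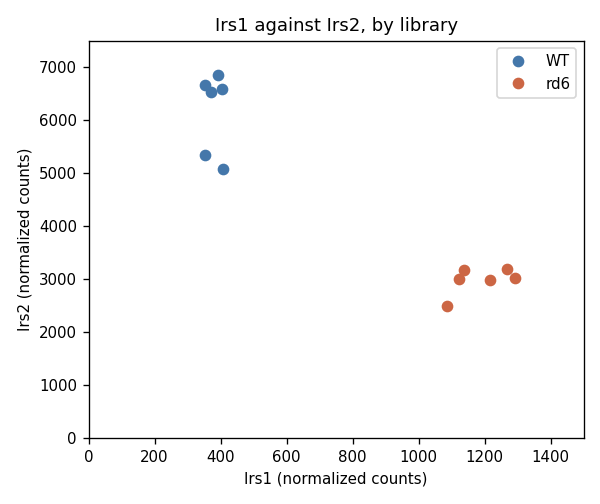
Normalized counts of *Irs1* (x axis) against *Irs2* (y axis), both linear, with 1 point per library and colours for WT and rd6. WT libraries sit at 352 to 407 for *Irs1* and at 5074 to 6849 for *Irs2*, and rd6 libraries at 1087 to 1292 and 2491 to 3187.

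Because the adaptors moved apart, the 250 bases before the transcription start of each gene are printed, as RefSeq places it in GRCm38.p6, read 5′ to 3′ in the direction of the gene. Capitals mark the E-box CACGTG, the element bound by factors such as USF and TFE3, and TGTTTTG, the letters of the insulin response element known from FOXO-regulated promoters. Where the elements overlap, their capitals run together.
Irs1, chr1:82291440-82291689, minus strand: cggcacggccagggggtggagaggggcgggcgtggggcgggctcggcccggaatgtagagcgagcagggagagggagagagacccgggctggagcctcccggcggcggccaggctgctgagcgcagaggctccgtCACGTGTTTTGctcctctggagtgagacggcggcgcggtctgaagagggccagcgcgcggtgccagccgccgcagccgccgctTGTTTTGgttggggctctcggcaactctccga
Irs2, chr8:11008930-11009179, minus strand: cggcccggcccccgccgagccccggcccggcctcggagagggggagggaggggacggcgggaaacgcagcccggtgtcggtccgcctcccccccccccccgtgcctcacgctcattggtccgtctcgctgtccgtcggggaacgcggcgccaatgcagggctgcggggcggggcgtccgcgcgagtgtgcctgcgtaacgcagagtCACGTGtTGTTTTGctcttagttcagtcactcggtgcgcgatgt
Both windows hold an E-box and, at its 3′ end, TGTTTTG in the sense direction. In *Irs1* the E-box covers bases 115 to 110 before the start, overlaps the TGTTTTG at bases 111 to 105, and a second TGTTTTG lies at bases 32 to 26. In *Irs2* the E-box covers bases 44 to 39 and TGTTTTG bases 37 to 31, with 1 base between them. Searched on both strands, CACGTG was found in 6.02% and TGTTTTG in 5.56% of 32851 RefSeq promoter windows of the same length, and both elements together in 97 windows, or 0.295%. The letters were chosen after these sequences had been seen, so the shared pair is a description, and the same letters lie in front of a gene that rose and a gene that fell. Of the other genes, 1 window of *Igfbp2* holds an E-box at bases 142 to 137. The FOXO consensus GTAAACA (3.17% of all windows), the cAMP response element TGACGTCA (1.55%) and the STAT element TTCNNNGAA (7.02%) were not in any of the 13 windows of the 9 genes with an entry.

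Both receptors were modestly lower in rd6. *Insr*, the insulin receptor (chr8:3122061-3279617), had counts of 4433 to 5132 with a median of 4865 in WT, and of 3122 to 4099 with a median of 4016 in rd6. *Igf1r*, the IGF1 receptor (chr7:67952827-68233668), had 4967 to 5471 (median 5204) in WT and 3564 to 4485 (median 4396) in rd6. For each receptor the highest rd6 library was below the lowest WT library. The fall of *Insr* was 0.34 on the log2 scale (SE 0.07, 1.27-fold, q = 0.00315) and that of *Igf1r* 0.30 (SE 0.06, 1.23-fold, q = 0.0035). Of the 12 RPE markers, 5 were lower, *Rpe65* and *Rlbp1* among them, and 7 did not pass, and the part of the RPE markers in the receptor levels was not tested.

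The balance of the receptors was not shown to differ. The *Insr* to *Igf1r* ratio was 0.868 to 0.977 in WT and 0.841 to 0.972 in rd6, a difference of -0.04 on the log2 scale with an exact permutation p of 0.314. Over the 16 alternative settings this difference ran from -0.06 to -0.02. The rd6 5 library was the lowest of its genotype for both receptors and for *Irs2*. It was also the rd6 library with the highest rod photoreceptor sum, at 62317 against 23472 or less in the others, and with the lowest RPE marker sum. The part of these levels in the result was not tested. Without rd6 5 all 3 genes were lower in rd6 with q below 0.05, which concerns that library alone.

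The ligands also moved in opposite directions. *Igf1* (chr10:87858265-87937042), the growth factor made by liver, glia and macrophages among many cells, had WT counts of 83.8, 137, 149, 388, 99.6 and 167. Its rd6 counts were 413, 479, 422, 544, 655 and 504. WT 4 came close to the rd6 libraries, and the other WT libraries were at 167 or less. *Igf1* rose by 1.73 on the log2 scale (SE 0.29), 3.31-fold, with q = 0.00109, and by 2.00 without WT 4.

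*Igf1* and the microglia and macrophage markers were both higher in rd6, where the marker sum without *Csf1r* was at least 3947. Within WT, the libraries WT 6 and WT 4 were the highest for both, in a different order. Their sums were 1384 and 1172 (others 639 to 800), with *Igf1* at 167 and 388 (others 83.8 to 149). WT 4 also had the highest ocular surface keratins of all libraries (167663) and the highest stromal fibroblast sum (22450). The defining markers *Aif1*, *Cx3cr1* and *P2ry12* were detected in every library of both genotypes, and *P2ry12*, a marker of microglia, ran from 8.86 to 17.6 in WT and from 123 to 378 in rd6. The part of these marker levels in the *Igf1* result was not tested. Among rd6 libraries, rd6 1, rd6 3 and rd6 2 were the lowest for both, with sums of 3947, 4702 and 7024 and *Igf1* at 413, 422 and 479. The libraries rd6 4, rd6 5 and rd6 6 were the highest for both, in a different order, with sums of 8456, 8095 and 8117 and *Igf1* at 544, 655 and 504.

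*Igf2* (chr7:142650766-142666816), an imprinted growth factor of fetal tissue, had counts of 149 to 268 (median 202) in WT and 73.6 to 147 (median 111) in rd6. The genotypes were adjacent without overlapping. *Igf2* fell by 0.86 on the log2 scale (SE 0.21), 1.82-fold, with q = 0.0092, close to the limit of 0.81. Without WT 1, rd6 5 or rd6 6 the fall was 0.77, 0.78 or 0.76 on the log2 scale and thus under that limit, with q still below 0.05. The reads of *Igf2* are shared with an annotated gene on the same strand and with the antisense gene *Igf2os*, which had 30.1 to 66.1 counts in WT and 17.2 to 32.5 in rd6, and their division is uncertain.

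The *Igf1* to *Igf2* ratio was 0.315 to 2.53 in WT and 2.96 to 8.15 in rd6, 6.02-fold higher in rd6 (difference 2.59 on the log2 scale, exact permutation p = 0.00216, adjusted 0.00325). *Igf1* and *Igf2* had already separated the genotypes in opposite directions, so this p was fixed by the single genes and is no further support. WT 4 had the highest ratio of the WT libraries, and the next highest was 1.0. Among the ligands outside the 10 genes, *Ins2*, an insulin gene whose transcript is known from the RPE as well as the pancreas, was lower in rd6, with 392 to 796 counts in WT and 172 to 239 in rd6. It fell by 1.45 on the log2 scale (SE 0.16, q = 3.35e-05), so that *Ins2* and *Igf2* fell while *Igf1* rose.

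**Figure D3:**
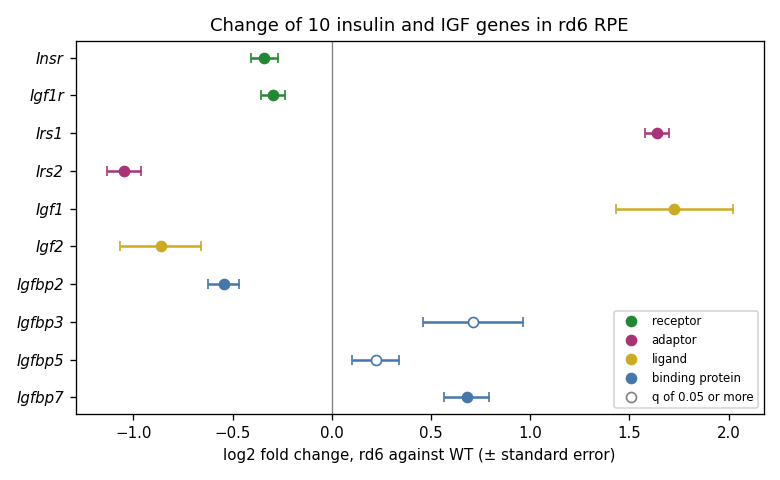
Log2 fold change of rd6 against WT (x axis, with SE bars) for each of the 10 genes, from limma on log2(normalized count + 1), coloured by role, with open points for q of 0.05 or more. *Irs1* at 1.64 and *Igf1* at 1.73 lie farthest to the right and *Irs2* at -1.05 farthest to the left.

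The binding proteins differed among themselves. *Igfbp2* (chr1:72824503-72852474), which binds both IGFs, had 4028 to 5446 counts in WT (median 4609) and 2747 to 3439 in rd6 (median 3186), with every rd6 library below every WT library. It fell by 0.55 on the log2 scale (SE 0.08), 1.46-fold, with q = 0.000309, beside the 5 of 12 RPE markers that were lower, whose part in it was not tested. *Igfbp5* (chr1:72857932-72874884), its neighbour on the chromosome and a binding protein that sticks to extracellular matrix, did not share this fall. Its counts were 39222 to 51873 in WT (median 44105) and 40720 to 62058 in rd6 (median 54112), with a difference of 0.22 on the log2 scale (SE 0.12, q = 0.208), within the spread of the libraries.

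*Igfbp7* (chr5:77349240-77408041), a secreted protein of vessel walls that binds IGFs weakly, went up. It had 7089 to 11837 counts in WT (median 9282) and 13397 to 17363 in rd6 (median 14679), and no library of one genotype reached the other. The rise was 0.68 on the log2 scale (SE 0.11), from a mean of 9428 ± 1789 (SD, n = 6) to 14922 ± 1308, with q = 0.000952. Endothelial markers were also higher in rd6, and their part in this result was not tested. In rd6 4, whose endothelial sum of 11971 was inside the WT range, *Igfbp7* stood at 14878, above every WT library. The gene *Polr2b* overlaps it on the opposite strand, with 1834 to 2319 counts.

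*Igfbp3* (chr11:7206086-7213923), the main IGF carrier in blood, had WT counts of 1597, 1083, 2039, 1567, 2001 and 2031. In rd6 it had 4546, 3612, 3424, 1710, 1697 and 2661, so that rd6 4 and rd6 5 fell inside the WT range while the other rd6 libraries were above it. The difference of 0.71 on the log2 scale (SE 0.25) did not pass the test (q = 0.0571). It passed with q = 0.0253 without rd6 4 and 0.0233 without rd6 5, and with edgeR (0.0406 with TMM scaling, 0.0317 with upper quartile scaling) and DESeq2 (0.00776). The endothelial sums of the rd6 libraries were 29070, 28933, 22473, 11971, 15761 and 19395 in the same order, and the stromal fibroblast sums 20462, 17244, 16733, 7731, 8646 and 9875. Within rd6, the libraries rd6 1, rd6 2 and rd6 3 were thus the highest for *Igfbp3* and for both marker lists. In WT the endothelial sums were 8366 to 15665 and the stromal sums 12838 to 22450, so that WT 4 had the highest stromal sum of all 12 libraries with *Igfbp3* at 1567. The part of these markers in the result was not tested.

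**Figure D4:**
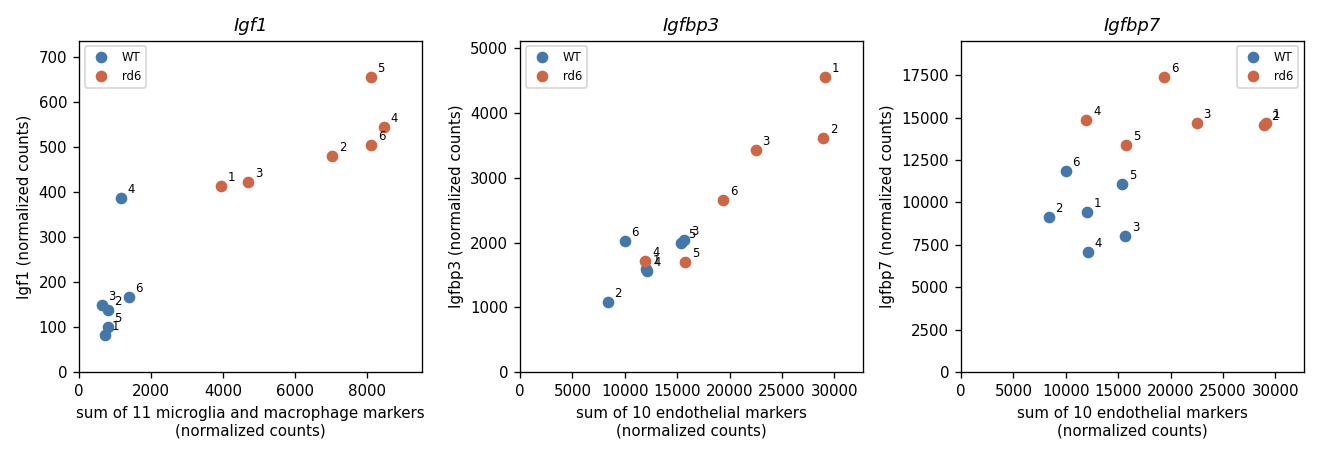
Normalized counts of *Igf1*, *Igfbp3* and *Igfbp7* (y axes) against the summed normalized counts of a marker list (x axes, microglia and macrophage without *Csf1r* for *Igf1*, endothelium for the other genes), with 1 point per library and its replicate number beside it. For *Igfbp7*, rd6 4 lies at a sum of 11971 among the WT libraries on the x axis and above all of them at 14878 on the y axis.

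Levels of different genes can be set side by side only per length, here as normalized counts per kilobase of exon. In WT the order ran from *Igfbp7* (7798) and *Igfbp5* (7433), whose libraries overlapped, to *Igfbp2* (2492), *Irs2* (977), *Igfbp3* (549), *Insr* (354), *Igf1r* (311), *Irs1* (41.5), *Igf2* (34.6) and *Igf1* (17.2). The neighbours *Igfbp3* and *Insr*, *Insr* and *Igf1r*, *Irs1* and *Igf2*, and *Igf2* and *Igf1* also overlapped in WT. In rd6 the order was *Igfbp7* (12342), *Igfbp5* (8759), *Igfbp2* (1705), *Igfbp3* (940), *Irs2* (471), *Insr* (280), *Igf1r* (253), *Irs1* (130), *Igf1* (50.8) and *Igf2* (19.3), and *Insr* and *Igf1r* were the single pair of neighbours with overlapping libraries. *Igfbp3* and *Irs2* exchanged places, as did the ligands, and the binding proteins *Igfbp7*, *Igfbp5* and *Igfbp2* headed the list in both genotypes.

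A list of 88 other genes of the pathway, also chosen with earlier results of these data known, had 82 that could be tested. Of these 8 were higher in rd6 and 22 lower (36.6% called, beside 23.0% of all genes tested), and 52 did not pass. The median change was -0.06 on the log2 scale. Past the limit of 0.81 on the log2 scale, 5 were higher (*Igfals*, *Sh2b2*, *Socs3*, *Pik3cd* and *Inpp5d*) and 3 lower (*Ins2* and *Inpp4b* among them), 9.76% of those tested beside 6.80% of all genes.

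Among ligands, receptors and clearance genes, *Ins2* and the mannose 6-phosphate and IGF2 receptor *Igf2r* were lower, and the other 3 of the 5 tested did not pass (40% called, beside 23.0% of all genes tested). *Igf2r* fell by 0.37 on the log2 scale and was named after its values were seen. The insulin receptor-related gene *Insrr* differed by 1.48 on the log2 scale in limma, which did not pass (q = 0.285), with 102 counts in WT 4 against 18.4 or less in the other WT libraries. Without WT 4 the difference was 2.17 (q = 0.0527), and with edgeR (TMM) and DESeq2 it was 0.55, so that *Ins2* has the largest change of the class in those fits. Of 7 further binding proteins and proteases, 1 was called (14.3%, beside 23.0% of all genes tested). This was *Igfals*, which forms a complex with IGFs and *Igfbp3* in blood, with 2.07 to 14.8 counts in WT and 24.6 to 73.6 in rd6 (log2 change 2.06, q = 0.00212). Its level was low in both genotypes.

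Adaptors and receptor regulators were split, with 3 of 17 higher and 6 lower (52.9% called, beside 23.0% of all genes tested). *Socs3*, the cytokine-induced inhibitor that targets insulin receptor substrates for degradation, had 47.5 to 159 counts in WT and 266 to 369 in rd6 and rose by 2.01 on the log2 scale (SE 0.26, q = 0.000137). *Sh2b2*, an adaptor of the insulin receptor, went from 13.8 to 27.1 counts up to 35.8 to 64.9. The inhibitory adaptor *Grb10* and the docking protein *Gab1*, picked after their values were seen, were 0.38 and 0.28 lower on the log2 scale (q = 0.00481 and 0.00109).

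In the PI3-kinase, AKT and mTOR class 3 of 28 were higher and 10 lower (46.4% called), beside 11.4% of all genes higher and 11.6% lower. The regulatory subunit *Pik3r1* and the catalytic subunit *Pik3cb*, named after their values were seen, fell by 0.57 and 0.42 on the log2 scale (q = 0.000173 and 3.57e-05), whereas the leukocyte-enriched catalytic subunit *Pik3cd* rose from 46.1 ± 8.01 (SD, n = 6) to 99.9 ± 19.1 counts (q = 0.000359). Of the phosphatases that remove phosphate from PI3-kinase products, *Inpp4b* fell by 0.91 (q = 6.02e-05) and *Inpp5d*, an enzyme of blood cells and microglia, rose by 1.67 (q = 8.46e-05). The rises of *Pik3cd* and *Inpp5d* stood beside the higher microglia and macrophage sum in rd6, whose part in them was not tested.

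None of the 9 genes of the RAS and MAP kinase class passed in limma, beside 23.0% of all genes tested, nor in edgeR with TMM scaling or DESeq2. In these 3 fits 0 of 9 also had an unadjusted p below 0.05, a looser rule whose share over all genes is not given here. The class was not tested against the others. The changes ran from -0.10 to 0.16 on the log2 scale, with *Hras* at the upper end (q = 0.235). Among 16 FOXO genes and FOXO targets, *Foxo1* rose by 0.34 and *Foxo4*, *Sesn3*, *Klf15* and *Ccng2* fell, all but *Klf15* named after their values were seen. *Klf15*, a regulator of amino acid and glucose metabolism in fasting, had the largest fall of the class, 0.67 on the log2 scale (q = 0.00766), and the WT libraries from 1318 to 2791 counts overlapped the rd6 libraries from 987 to 1419. The FOXO targets *Pdk4* and *Fbxo32*, known to rise in fasting and also named after their values were seen, differed by -0.51 and -0.14 on the log2 scale and did not pass the test (q = 0.339 and 0.737).

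**Figure D5:**
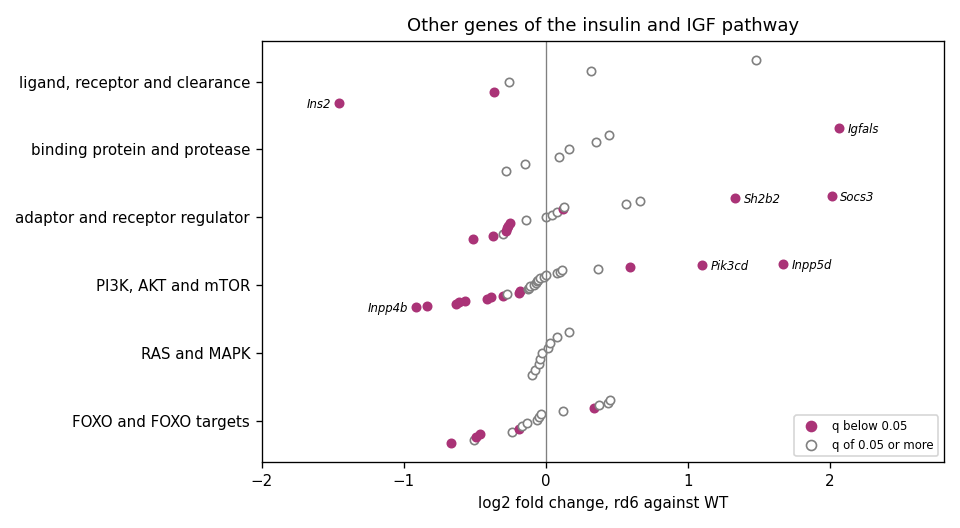
Log2 fold change of rd6 against WT (x axis) for the 82 tested pathway genes outside the 10, by class, with filled points for q below 0.05 and open points for the rest. Names stand beside *Ins2*, *Inpp4b* and the 5 genes called higher with a change of 0.81 or more, and the RAS and MAP kinase class lies between -0.10 and 0.16.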

How the data were processed

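RPE RNA of 6 WT and 6 rd6 mice was made by the authors into stranded total-RNA libraries, sequenced as read pairs, aligned to mm10 and counted per gene with Rsubread. The authors deposited 1 signal per gene and library, called normalized count here and made by dividing reads by DESeq2 size factors. They also deposited log2 fold changes, a Wald statistic (a score) and p-values of their own comparison, which were not used. Counting used default settings per the methods, and the default of Rsubread's counter ignores strand, so reads of genes that overlap on opposite strands cannot be told apart. Tool versions are not given in the sources used here.

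Of 28596 entries, 5 repeats of 4 identifiers were dropped. Deposited values were whole multiples of 1 read in every library (relative tolerance 1e-06, 100% of values), so reads were recovered. No pair of libraries agreed within sampling noise (chi-square per gene 9.25 or more within a genotype). WT libraries had a median of 30017490.5 and rd6 libraries of 30868902.5 reads on genes, and 3 reads equal 2.71 to 3.32 normalized counts. Such limits cover counting error only.

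The test was limma 3.58.1 (R 4.3.3, eBayes with trend) on log2(value + 1) of genes with a mean of at least 10, genotype as the single term, with Benjamini-Hochberg adjustment over the 17768 genes tested. Fold changes are on this scale and understate changes of low genes. Each library is taken as 1 animal, and p-values measure the spread between these libraries. Alternatives were edgeR 4.0.16 and DESeq2 1.42.0 on the recovered reads, other pseudocounts (0.1 and 10), other filters and scalings, a replicate block and leaving out libraries. On simulated data the fit recovered 42.4% of genes changed 1.5-fold, 95.5% at 2-fold and 100% at 3-fold, in 17682 genes. The simulation gave all genes the same dispersion and changed few of them, so these shares need not hold for a given real gene. The 3 ratios were tested two-sided by exact permutation. Named genes are the 10, pathway genes called with a change of at least 0.81 on the log2 scale (the second rule), the largest change of each class in limma, the first markers of each list and *Mfrp*, and 1 pathway gene that meets this rule is not reported here. Genes named outside this rule are marked as named or picked after their values were seen. The genes and lists were chosen with earlier results of these data known. Coordinates are from GENCODE M21 (GRCm38), which matched 28545 of 28591 genes, and promoters from RefSeq (GRCm38.p6).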

Additional observations from a re-analysis of the deposited data

Results flagged for a closer look

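Single libraries stood apart from the other 5 of their genotype by Dixon's test in 8 of 48 groups examined, where chance flags about 1 in 20. The rd6 5 library was the lowest of rd6 for *Insr* (3122 normalized counts, others 3772 to 4099), *Igf1r* (3564, others 4185 to 4485) and *Irs2* (2491, others 2980 to 3187), and all 3 genes were lower in rd6 with and without it. WT 4 was the highest of WT for *Igf1* (387.5, others 83.8 to 167), for the *Igf1* to *Igf2* ratio (2.53, others 0.315 to 1.0) and for *Insrr* (102.0, others 0.986 to 18.4). In rd6 6 *Igfbp7* was highest (17360, others 13400 to 14880), and in WT 3 *Igfals* was lowest (2.07, others 11.1 to 14.8).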

How the results depend on the processing

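Over 22 alternative settings and 21 single genes, 455 of 460 results kept their direction and their side of the threshold, none reversed and none was lost, and the other 5 were *Igfbp3* passing the test with edgeR (TMM or upper quartile), with DESeq2, or without rd6 4 or rd6 5. The setting without the 3 libraries highest in keratins was chosen after seeing the data. Leaving out 1 library gave 3 to 4 of the 10 genes higher and 5 lower, 2 to 3 higher and 1 to 2 lower with the limit of 0.81 on the log2 scale (1 without WT 1, rd6 5 or rd6 6, where *Igf2* falls under that limit), and 7 to 9 pathway genes higher and 19 to 23 lower. The replicate numbers do not pair the libraries: deviations of same-numbered libraries correlated with r from -0.743 to 0.315, above 0.1 in 1 of 6 pairs, and no library correlated best with its own number. With the replicate block 3 of the 10 genes were higher and 5 lower, 7 pathway genes higher and 20 lower, and the adjusted p of the *Irs1* to *Irs2* and *Igf1* to *Igf2* ratios was 0.0469, where the unadjusted p is the smallest that 6 pairs allow. Both ratio results were fixed by the separation of their single genes. Upper quartile scaling moved the calls over all genes to 2374 higher and 1583 lower, 60.0% higher against 49.5%. With 6 libraries a genotype the fit found 42.4% of 1.5-fold changes simulated with the same dispersion for all genes. The share for a real gene depends on its own spread, and a gene that did not pass may still differ. *Igfals*, *Sh2b2* and *Insrr* rest on few reads.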
